A study of Homo sapiens with 9 samples.

Results

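Guanylate-binding proteins are large GTPases encoded by 7 human genes, GBP1 to GBP7, and 3 of these genes could be followed here. GBP3 (probe set 16689312), GBP4 (16689384) and GBP5 (16689400) each have 1 named probe set among the 14778 named genes of the arrays. GBP1, GBP2, GBP6 and GBP7 have no named probe set in the annotation used and are not analysed here. The family was picked by gene name, with earlier results of these data known, and the brightest probe set over the 9 arrays was to stand for each gene. No member had more than 1 probe set, so that choice decided nothing. GBP4 was already known to be far lower in RhoH than in GFP cells. As all members were picked with earlier results known, the p-values and counts of members given below are no independent evidence.

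The cells were HL-60 clone 15, a subclone of a human promyelocytic leukaemia line. All 3 groups carried a lentiviral construct that 4-hydroxytamoxifen (4-OHT) switches on, and each group has 3 arrays, called biological replicates in the design text. Induced RhoH cells carried the construct for RhoH and received 100 nM 4-OHT, uninduced RhoH cells carried the same construct without 4-OHT, and GFP cells carried a construct for green fluorescent protein and received 100 nM 4-OHT. GFP cells without 4-OHT were not among the arrays used here, so 4-OHT, construct leak and differences between the transduced populations cannot be told apart. The time in 4-OHT and the number of clones behind each line are not given in the sources used here.

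The family belongs to the dynamin superfamily and takes its name from binding of guanine nucleotides. Its genes are among the most strongly inducible targets of interferon gamma, which acts through a receptor of IFNGR1 and IFNGR2 chains, JAK kinases and the transcription factor IRF1. The proteins assemble on bacteria and on the vacuoles that hold them, and they help to bring inflammatory caspases there. GBP1, GBP2 and GBP5 end in a motif that receives a lipid anchor, whereas GBP3 and GBP4 lack it. In myeloid cells the family is known as part of cell-autonomous defence.

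The RefSeq promoter table (GRCh38.p14) held 5 of the 7 family members (GBP1, GBP3, GBP4, GBP6 and GBP7). The start regions of GBP3 and GBP4 are shown because these are the 2 of them with values here. GBP5 was not held there, so its start region could not be searched. Each window runs from 250 bases before to 50 bases after the start site, on the strand of the gene. GBP3 lies on the minus strand at chr1:89022817-89023116 and GBP4 on the minus strand at chr1:89198893-89199192. Capitals mark matches to the core of the interferon-stimulated response element (ISRE), which is GAAA, any 2 bases and GAAA again, and to TTCNNNGAA, the gamma-activated site (GAS), both searched on both strands.
GBP3: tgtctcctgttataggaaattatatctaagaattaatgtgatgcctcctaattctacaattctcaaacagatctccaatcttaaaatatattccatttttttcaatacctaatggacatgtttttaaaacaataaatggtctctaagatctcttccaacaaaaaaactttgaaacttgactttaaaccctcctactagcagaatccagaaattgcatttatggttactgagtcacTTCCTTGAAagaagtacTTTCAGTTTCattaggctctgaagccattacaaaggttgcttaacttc
GBP4: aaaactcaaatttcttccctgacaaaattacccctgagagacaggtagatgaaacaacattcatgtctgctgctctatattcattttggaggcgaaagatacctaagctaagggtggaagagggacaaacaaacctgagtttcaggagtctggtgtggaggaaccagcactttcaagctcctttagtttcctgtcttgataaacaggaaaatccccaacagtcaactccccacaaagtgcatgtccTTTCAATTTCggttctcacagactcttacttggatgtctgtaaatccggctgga

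Both windows held the ISRE core once, read from the opposite strand. In GBP3 it began 2 bases after the start site, and in GBP4 it began 4 bases before and ended 5 bases after it. GBP3 also held a GAS match, which began 15 bases before the start site and does not overlap the ISRE match. No GAS match lay in the GBP4 window. Of all 35116 promoter windows in the table, 3.57% held the ISRE core, 7.66% the GAS letters and 0.439% both. Among the members without values here, the GBP1 window held the ISRE core 127 bases before the start site, and the GBP6 and GBP7 windows held neither motif. These matches describe letters and not binding.

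The values are log2 signals after RMA, which corrects background, quantile-normalizes and summarises each probe set, and which compresses low signals. Array medians lay between 5.43 and 5.55. Pearson correlations across the named genes were 0.983 to 0.989 within induced RhoH, 0.988 to 0.996 within uninduced RhoH and 0.997 within GFP, and genes are not independent replicates. Replicate 1 of both RhoH groups and replicate 3 of induced RhoH stood farthest from their group means (SD over genes 0.200 to 0.206, against 0.0904 to 0.162 on the other 6 arrays). RHOH, the gene in the construct, averaged 5.59 ± 0.14 in the arrays labelled induced RhoH, 5.21 ± 0.06 in those labelled uninduced RhoH and 5.93 ± 0.02 in those labelled GFP (SD, n = 3 each). Its 3 induced RhoH values (5.45 to 5.73) lay below the 3 GFP values (5.90 to 5.94), where 22.5% of all genes did not overlap. The log2 difference of -0.33 did not pass (limma adjusted p = 0.0717). This order goes against the labels only if the probe set reads the construct. Probe sequences were not used, so that is not known, and RHOH ranked only between percentile 25.1 and 41.5 of named genes. Induced RhoH stood above uninduced RhoH by 0.38 (adjusted p = 0.0451, called in 7 of 19 alternatives), and uninduced RhoH below GFP by -0.72 (adjusted p = 0.00042). Directions are therefore given by label only. Of 10 promyelocytic markers 6 were measured, and their group means ran from 9.07 for SPI1 to 13.39 for MPO. T and B lymphocyte markers (3 of 9 measured) averaged 5.54 to 5.84 per array, and endothelial and fibroblast markers (3 of 8 measured) 4.50 to 4.68. Neither list had a called gene in any comparison by limma, and 0 of these genes had an unadjusted p under 0.05.

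GBP3, which joins the coat that guanylate-binding proteins form on bacteria in the cytosol, took a separate level in each group. Its log2 signal was 6.26, 6.50 and 6.96 in induced RhoH cells, against 5.45, 4.51 and 4.71 in uninduced RhoH cells and 7.53, 7.72 and 7.70 in GFP cells. The 9 arrays did not overlap between any 2 groups, with uninduced RhoH lowest and GFP highest. Arrays without overlap were found for 14.5% of all genes between the RhoH groups, for 22.5% between induced RhoH and GFP and for 37.3% between uninduced RhoH and GFP. That complete order of all 9 arrays was found for 565 of 14778 genes (3.82%).

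With 4-OHT in RhoH cells, GBP3 rose 3.22-fold (log2 difference 1.69, SE 0.24, limma adjusted p = 0.00368). On the uninduced RhoH arrays it ranked between percentile 16.0 and 29.9 of named genes, toward the low end of the scale, where RMA compresses differences. Its folds against these arrays are those of the RMA signals and may understate the difference in transcript. GBP3 was the 1 member of 3 called in this comparison, where 3.78% of all genes were called at an adjusted p under 0.05 and 3.02% were called higher. The highest of the uninduced arrays was replicate 1. Without the replicate 1 arrays of both RhoH groups the difference was 2.12 (adjusted p = 0.00132). The call held in all 19 alternatives, with differences from 1.49 to 2.12.

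Compared with GFP cells, GBP3 was lower in induced RhoH cells, 6.58 ± 0.35 against 7.65 ± 0.11 (SD, n = 3 each). The log2 difference was -1.07 (SE 0.24, 2.10-fold lower, limma adjusted p = 0.0328), and 2 of the 3 members were called lower, where 4.49% of all genes were called and 2.75% were called lower. The GBP3 call was lost without induced RhoH replicate 1 (-0.92, adjusted p = 0.0921) or 2 (-1.04, 0.0819) and without GFP replicate 1 (-1.13, 0.0945), 2 (-1.03, 0.14) or 3 (-1.05, 0.129). It was also lost without uninduced RhoH replicate 3, which enters the estimate of the spread (-1.07, 0.0519), and with all probe sets tested (0.0791).

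Between uninduced RhoH and GFP cells the gap was wider. GBP3 averaged 4.89 ± 0.50 in uninduced RhoH cells and 7.65 ± 0.11 in GFP cells (SD, n = 3 each), 6.77-fold lower in RhoH (log2 difference -2.76, SE 0.24, limma adjusted p = 3.71e-05). Again 2 of 3 members were called lower, where 15.3% of all genes were called and 9.27% were called lower. The mean of induced RhoH cells lay 61.1% of the way from the uninduced RhoH mean to the GFP mean on the log2 scale.

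**Figure D1:**
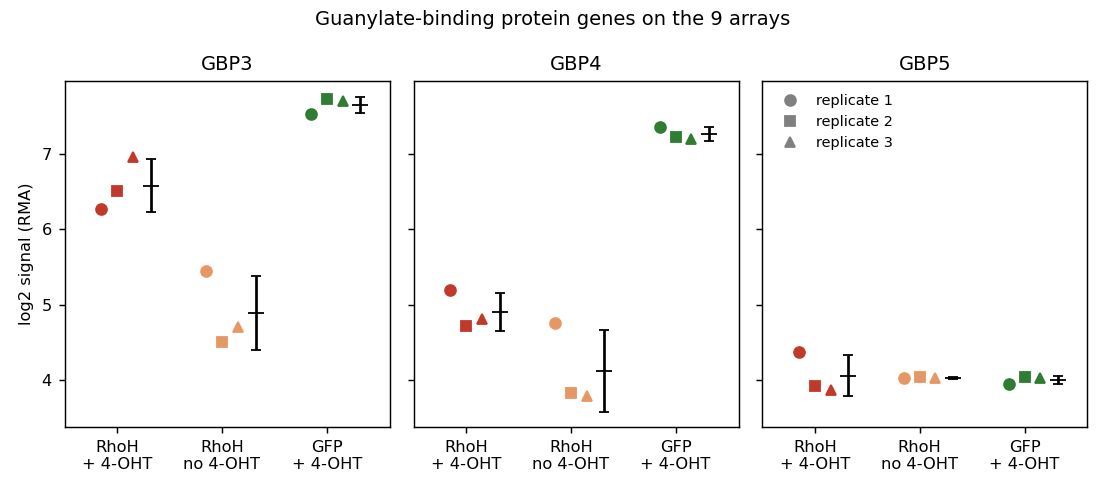
Log2 signal (y axis) of GBP3, GBP4 and GBP5 on each array, by group (x axis), with marker shapes for replicate numbers and bars for the group mean ± SD (n = 3). GBP3 takes 3 separate levels, GBP4 is high in the 3 GFP arrays (7.19 to 7.36), and GBP5 lies between 3.87 and 4.37 in every group.

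GBP4, a member without the lipid anchor motif, was lower in both RhoH groups than in GFP cells. Its log2 signal was 5.19, 4.71 and 4.81 in induced RhoH cells, against 4.75, 3.83 and 3.79 in uninduced RhoH cells and 7.36, 7.23 and 7.19 in GFP cells. All 6 RhoH arrays lay below all 3 GFP arrays. Of all genes, 22.5% did not overlap between induced RhoH and GFP and 37.3% between uninduced RhoH and GFP, in either direction. The share that did so in both comparisons was not counted. Among named genes, GBP4 ranked between percentile 61.9 and 64.6 on the GFP arrays, and between percentile 7.81 and 24.9 on the RhoH arrays. The RhoH values are thus near the low end of a scale on which RMA compresses differences.

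In induced RhoH cells GBP4 was 5.12-fold lower than in GFP cells (log2 difference -2.35, SE 0.23, limma adjusted p = 0.000417). In uninduced RhoH cells it was 8.77-fold lower than in GFP cells (-3.13, SE 0.23, adjusted p = 1.36e-05). Both calls held in all 19 alternatives, with differences from -2.50 to -2.26 and from -3.45 to -2.97. These 2 comparisons share the GFP arrays. On 2 of the 3 uninduced RhoH arrays GBP4 (3.83 and 3.79) was as dim as GBP5, so its folds are those of the RMA signals and may understate the difference in transcript.

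The difference of GBP4 between the RhoH groups did not pass. GBP4 averaged 4.90 ± 0.25 in induced and 4.13 ± 0.54 in uninduced RhoH cells (SD, n = 3 each; log2 difference 0.78, SE 0.23, limma adjusted p = 0.12). The arrays overlapped, because uninduced RhoH replicate 1 (4.75) lay above induced RhoH replicate 2 (4.71). Without uninduced RhoH replicate 1 the difference was 1.09 and passed (adjusted p = 0.00493), and without the replicate 1 arrays of both RhoH groups it was 0.95 (adjusted p = 0.00234). Array weights, lowest for uninduced RhoH replicate 1 (0.267) and induced RhoH replicates 3 (0.275) and 1 (0.334), gave 0.93 (adjusted p = 0.00776). Across the 19 alternatives its adjusted p lay between 0.00234 and 0.36.

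**Figure D2:**
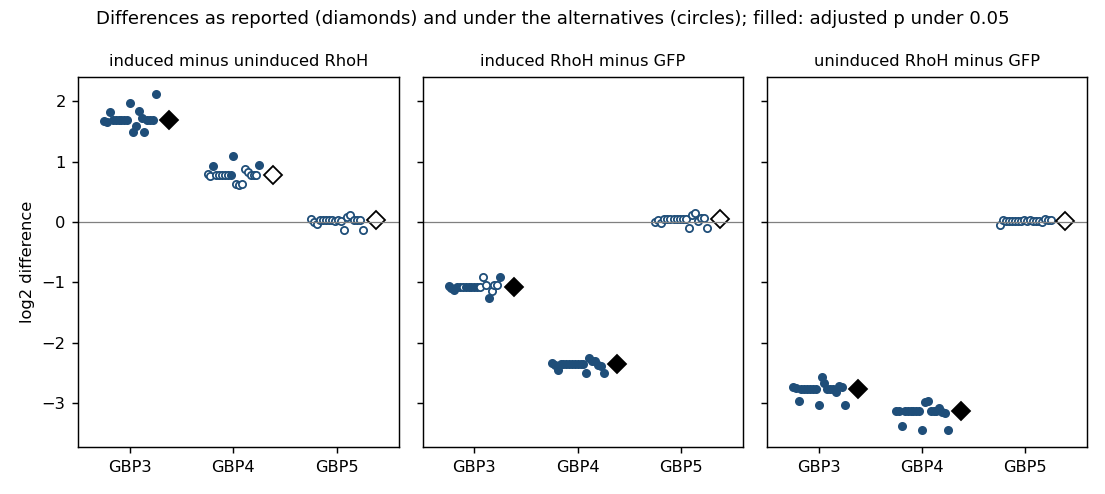
Log2 difference (y axis) of each member in the 3 comparisons, as reported (diamonds) and under each alternative of the processing (circles), filled where the adjusted p is under 0.05. GBP4 keeps its calls against GFP in all alternatives, the GBP3 call of induced RhoH against GFP is lost in 7 of 19, and the GBP4 difference between the RhoH groups passes in 4 of 19.

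GBP5, which carries the lipid anchor motif and interferes with furin processing of viral envelope proteins, stayed near the bottom of the scale. Its log2 signal was 4.37, 3.93 and 3.87 in induced RhoH cells, against 4.02, 4.04 and 4.02 in uninduced RhoH cells and 3.95, 4.05 and 4.02 in GFP cells. The groups overlapped, and on each array the gene ranked between percentile 8.63 and 13.1 of named genes. The log2 differences were 0.03 (95% interval -0.25 to 0.30) for induced against uninduced RhoH, 0.05 (-0.23 to 0.33) for induced RhoH against GFP and 0.03 (-0.25 to 0.30) for uninduced RhoH against GFP. The limma adjusted p-values were 0.968, 0.878 and 0.925. At such a signal a difference was not detectable, which does not show that the transcript was absent or alike.

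GBP3 and GBP4 were also compared through their difference on each array, which removes what an array adds to both. A probe set's level cannot be set against another's, so only changes of this difference between groups can be read. GBP3 minus GBP4 was 1.07, 1.79 and 2.15 in induced RhoH cells, against 0.70, 0.68 and 0.92 in uninduced RhoH cells and 0.16, 0.50 and 0.51 in GFP cells. The 3 groups did not overlap. Its mean was higher in induced than in uninduced RhoH cells by 0.91 and higher in induced RhoH than in GFP cells by 1.28. An exact permutation test, two-sided, gave p = 0.1 in each of the 3 comparisons. As 3 arrays against 3 allow no smaller value, it only restates that the groups do not overlap. The induced RhoH mean of GBP4 lay 24.8% of the way from uninduced RhoH to GFP, against 61.1% for GBP3. This contrast was chosen after the values were seen. GBP4 is near the low end of the scale in RhoH cells, and GBP3 lies toward it in uninduced RhoH cells. The part of these low signals in both the shift and the share of the gap was not tested.

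**Figure D3:**
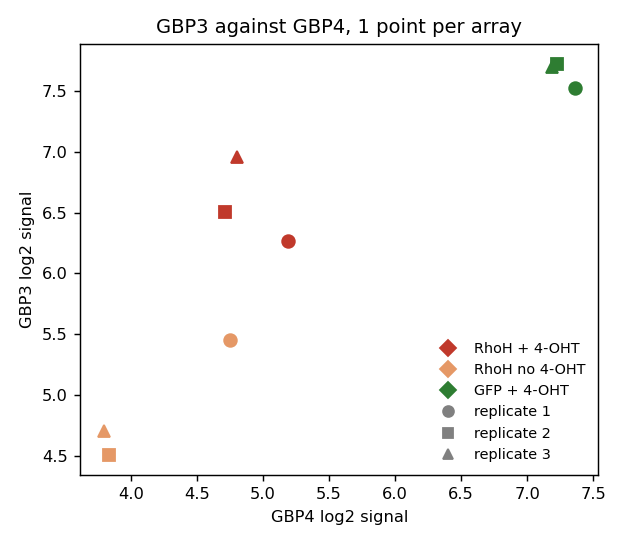
GBP3 log2 signal (y axis) against GBP4 log2 signal (x axis), 1 point for each of the 9 arrays, coloured by group and shaped by replicate number. Induced RhoH arrays lie at 4.71 to 5.19 in GBP4 and 6.26 to 6.96 in GBP3, uninduced RhoH replicate 1 at 4.75 and 5.45, and the 3 GFP arrays are high in both.

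Over the 9 arrays, Pearson's r between GBP3 and GBP4 was 0.896. It describes arrays that fall into 3 groups and share their cultures, and no p is given. By the same measure, both were compared with 2288 genes whose SD over the arrays was at least 0.3. The closest to GBP3 were USB1, which trims U6 RNA (0.987), the antioxidant enzyme sulfiredoxin gene SRXN1 (0.987) and the Siglec family gene SIGLEC12 (0.986). The closest to GBP4 were the myeloid surface receptor gene CD300C (0.990), LACC1 (0.990), an enzyme of macrophage metabolism, and the GATA-type repressor gene TRPS1 (0.988). Such values were common, since 67 genes reached 0.95 with GBP3 and 50 with GBP4, and 12 and 65 genes lay at or below -0.95. SIGLEC12 was 6.98, 6.98 and 7.23 in induced RhoH, 6.21, 5.84 and 5.96 in uninduced RhoH and 7.31, 7.51 and 7.48 in GFP cells, and its groups did not overlap. LACC1 averaged 5.71 ± 0.15 in induced RhoH, 5.13 ± 0.42 in uninduced RhoH and 8.25 ± 0.16 in GFP cells (SD, n = 3 each).

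Genes of the interferon pathway were then read from lists chosen with earlier results known. No interferon gene of the 9 listed had a named probe set. Of 8 receptor chains and kinases 5 were measured, with 2 higher and 0 lower in induced than in uninduced RhoH cells, 0 higher and 1 lower in induced RhoH than in GFP cells, and 0 higher and 4 lower in uninduced RhoH than in GFP cells. Of all genes, 3.78%, 4.49% and 15.3% were called in these comparisons. The median log2 differences of the 5 measured genes were 0.31, -0.32 and -0.57, against -0.0043, 0.03 and 0.05 over all genes. IFNGR1, the ligand-binding chain of the interferon gamma receptor, was 8.47, 8.47 and 8.22 in induced RhoH, 7.82, 8.28 and 8.13 in uninduced RhoH and 9.03, 9.08 and 9.08 in GFP cells. All GFP arrays lay above all RhoH arrays, where 22.5% of all genes did not overlap between induced RhoH and GFP and 37.3% between uninduced RhoH and GFP.

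IFNGR1 was lower in induced RhoH than in GFP cells by a log2 difference of -0.68 (limma adjusted p = 0.0136, lost without GFP replicate 1, 2 or 3 at 0.0557, 0.0699 and 0.0661). Against GFP, uninduced RhoH cells differed by -0.99 (adjusted p = 0.00044). With 4-OHT in RhoH cells it stood at 0.31 (adjusted p = 0.268). The partner chain IFNGR2 (0.39, adjusted p = 0.0401) and the kinase JAK1 (0.53, adjusted p = 0.0298) rose there, but both calls were fragile. IFNGR2 lost its call without any 1 of the 9 arrays (0.0547 to 0.121), and JAK1 without any 1 other than induced RhoH replicate 1 (0.056 to 0.0752).

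Of 10 transcription factors of the pathway 7 were measured, and IRF1 and IRF2 rose with 4-OHT in RhoH cells, with 0 lower, where 3.02% of all genes were called higher. IRF1, an activator of guanylate-binding protein genes, was 8.19, 8.55 and 9.01 in induced RhoH, 6.50, 7.40 and 7.13 in uninduced RhoH and 9.25, 9.21 and 9.25 in GFP cells. It kept the 3 groups apart in the order of GBP3. The difference between the RhoH groups was 1.57 (SE 0.24, limma adjusted p = 0.00551), and that of IRF2, which binds the same DNA element, was 0.72 (SE 0.10, adjusted p = 0.0036). Both calls held in all 19 alternatives.

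Against GFP, IRF1 was at -0.66 in induced RhoH cells (adjusted p = 0.191) and lower by -2.23 in uninduced RhoH cells (adjusted p = 0.000147). In induced RhoH cells IRF3 was the 1 of 7 factors called lower than in GFP cells (-0.46, adjusted p = 0.047), and this call was lost in 10 of 19 alternatives (up to 0.202). The share of all genes called lower was 2.75% there. In uninduced RhoH cells 4 of 7 were called lower, against 9.27% of all genes, namely IRF1, IRF2 (-1.07), IRF3 (-0.49) and IRF9 (-0.42). The last 2 lost their calls without GFP replicate 2 (0.0655 and 0.0518) or 3 (0.0527 and 0.0502).

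Of 33 other listed targets of interferon gamma 14 were measured, and 5 rose and 0 fell with 4-OHT in RhoH cells, where 3.02% of all genes were called higher. The other 9 were not called, and 5 of the 14 had a difference below 0. The 5 that rose were RNF213 (1.23, limma adjusted p = 0.000431), SP110 (0.96, 0.000402), UBE2L6 (0.92, 0.0146), TRIM22 (0.83, 0.0154) and TAPBP (0.60, 0.00349). RNF213 is a ubiquitin ligase that coats bacteria, and UBE2L6 is the ISG15-conjugating enzyme. TRIM22 is an antiviral factor, and TAPBP is the tapasin gene of peptide loading. The count was 4 without both RhoH replicate 1 arrays, without TRIM22 (0.0644), and 3 without uninduced RhoH replicate 3, without TRIM22 (0.0682) and UBE2L6 (0.0558). TRIM22 was also lost without uninduced RhoH replicate 1 (0.0539). A rise was not seen for all targets: CXCL10 was at 0.14, CXCL9 at -0.20 and WARS1 at -0.08, and the median of the 14 was 0.14. CXCL10 and CXCL9 lay at group means of 3.00 to 3.49 and 3.96 to 4.30, near the level of GBP5 or below it. At such a signal a difference was not detectable. CXCL11 (4.18 to 4.47) and CD274 (4.46 to 4.77), both with differences below 0, were dim as well, and these genes enter the median. WARS1 lay at 8.82 to 8.93.

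RNF213 was 8.82, 8.82 and 8.67 in induced RhoH, 7.26, 7.61 and 7.77 in uninduced RhoH and 9.90, 9.94 and 9.90 in GFP cells. Like GBP3 it held 3 separate levels. In induced RhoH it was lower than in GFP cells by -1.14 (adjusted p = 0.000673), and its calls in the 3 comparisons held in all 19 alternatives. The complete order of arrays seen for GBP3 was found for 5 of the 14 targets (TAPBP, UBE2L6, SP110, XAF1 and RNF213) and for 2 of 7 transcription factors (IRF1 and IRF2), where 3.82% of all genes showed it.

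Against GFP cells, 5 of the 14 targets were lower and 0 higher in induced RhoH cells, where 2.75% of all genes were called lower (RNF213, XAF1 at -0.74, LAP3 at -0.62, SP110 at -0.48 and TAPBP at -0.40). In uninduced RhoH cells, where 9.27% of all genes were called lower, 8 were lower and 0 higher, the same 5 with UBE2L6 (-1.54), TRIM22 (-0.82) and TRIM21 (-0.70). Without any 1 GFP array, induced RhoH cells lost the calls of LAP3 (0.136 to 0.175), SP110 (0.0707 to 0.0956) and TAPBP (0.095 to 0.114). In uninduced RhoH cells LAP3 also lost its call without any 1 GFP array (0.0654 to 0.0874) and TRIM21 was called in 13 of 19 alternatives. XAF1, an interferon-inducible gene linked to apoptosis, kept its calls against GFP in all 19 alternatives and did not pass between the RhoH groups (0.13, adjusted p = 0.527).

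**Figure D4:**
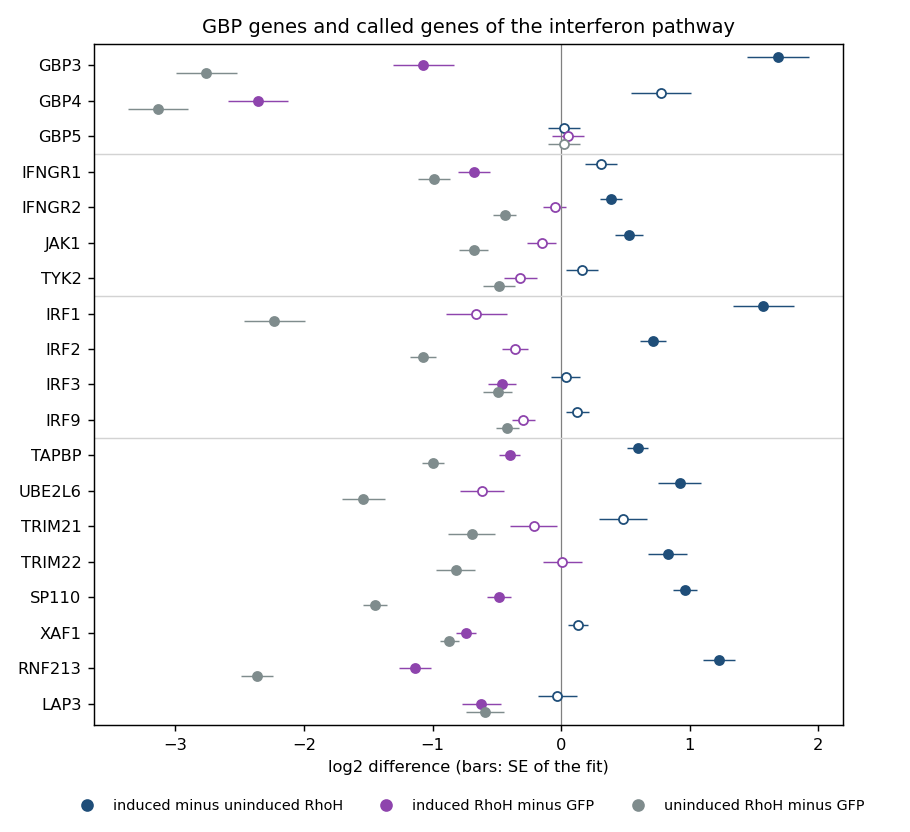
Log2 difference with the SE of the fit (x axis) for the 3 members and for the called receptors, kinases, transcription factors and interferon gamma targets (y axis), filled where the adjusted p is under 0.05. Colours mark the 3 comparisons, which share arrays pairwise. GBP3, IRF1 and RNF213 show the widest gaps between induced and uninduced RhoH among the genes drawn, and GBP4 the widest against GFP.

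Relatives and partners of the family were read in the same way. Of 16 other large GTPases 10 were measured and none was called with 4-OHT in RhoH cells (limma, with 1 gene higher and 0 lower before adjustment at a p under 0.05). The antiviral dynamin-like gene MX2 stood at 0.51 there (adjusted p = 0.218). In RhoH against GFP cells 0 were higher, and the mitochondrial fusion gene MFN1 was lower in induced cells (-0.46, adjusted p = 0.0448, lost in 9 of 19 alternatives), and MFN1 (-0.47) and the endocytic dynamin gene DNM2 (-0.38) in uninduced cells. These are 1 of 10 and 2 of 10 genes, where 2.75% and 9.27% of all genes were called lower, and nothing is read from them. Without GFP replicate 2 both uninduced calls were lost (0.0716 and 0.0781). MFN1 was also lost without GFP replicate 1 (0.0533), and DNM2 without GFP replicate 3 (0.0746) or uninduced RhoH replicate 3 (0.0571).

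Of 12 inflammasome and pyroptosis genes 5 were measured, and 1 was called in 1 comparison, NINJ1 of membrane rupture, lower in uninduced RhoH than in GFP cells (-0.30, adjusted p = 0.0293, lost in 6 of 19 alternatives), where 15.3% of all genes were called. The inhibitors SOCS1, SOCS3 and USP18 (3 of 6 measured) had no call by limma in any comparison. Before adjustment a p under 0.05 was seen for all 3 between the RhoH groups (2 higher, 1 lower) and for 1 lower gene in each comparison with GFP. Over all 14778 genes, 1268 were higher and 871 lower at that unadjusted p between the RhoH groups. Against GFP, 1262 genes were lower at that p in induced and 1999 in uninduced RhoH cells. Of 5 listed prenylation enzymes only ICMT had a named probe set, and it was not called. Among 5 measured of 10 genes that flank the guanylate-binding protein cluster, none was called in either comparison of induced RhoH cells by limma, with 0 at an unadjusted p under 0.05 in both. BARHL2, 1 of the 5, was higher in uninduced RhoH than in GFP cells (0.35, adjusted p = 0.0243, lost in 7 of 19 alternatives). As 15.3% of all genes were called in that comparison, nothing is read from it.

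Of 9 markers of monocytes and macrophages 6 were measured, and 2 rose with 4-OHT in RhoH cells, where 3.02% of all genes were called higher. The mean over the 6 markers was 6.52 to 6.86 on the induced RhoH arrays, 6.03 to 6.27 on the uninduced RhoH arrays and 6.96 to 7.10 on the GFP arrays. The 2 that rose were CD68 (1.11, limma adjusted p = 0.000834) and CD86 (2.07, adjusted p = 0.000108), and both kept their 9 arrays in the order of GBP3. CD14 (0.12, adjusted p = 0.902) and CSF1R (0.33, adjusted p = 0.167) were not called there. Against GFP, 1 of the 6 was lower and 0 higher in induced RhoH cells (CD14 at -1.35), where 2.75% of all genes were called lower. In uninduced RhoH cells 3 were lower and 0 higher (CD14 at -1.47, CD68 at -1.41 and CD86 at -2.69), where 9.27% of all genes were called lower. CD163 and MARCO, both macrophage receptors, were not called and lay at group means of 4.05 to 4.26 and 5.64 to 5.85. The promyelocytic granule genes MPO, AZU1, PRTN3 and CTSG went the other way against GFP. They were higher in both RhoH groups than in GFP cells by 0.93 to 2.47 on the log2 scale. Of the 6 measured promyelocytic markers, SPI1 (-0.11 and -0.22 against GFP) and LYZ (0.12 and 0.22) were not called in any comparison. Of 14778 genes, 257 were called higher in induced and 888 in uninduced RhoH than in GFP cells. With 4-OHT in RhoH cells only CTSG of the 6 was called, lower (-0.83, limma adjusted p = 0.00703). That call was lost with only the 6 arrays compared (0.0518) and without both RhoH replicate 1 arrays (0.0541). The part of these markers in the levels of GBP3 and GBP4 was not tested, and in bulk RNA more cells of a kind and more RNA per cell cannot be told apart.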

How the data were processed

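Total RNA of 9 HL-60 clone 15 samples was hybridised to Affymetrix whole-transcript arrays. The authors deposited log2 expression values for 43550 probe sets, made per the submitters' processing notes with Affymetrix Power Tools, RMA and limma (no versions stated). They hold no counts, and the number of arrays limits precision. A platform table gave 1 symbol for 15659 probe sets and none for 27891, all matched by Entrez identifier to RefSeq (GRCh38.p14). The brightest probe set stood for each of 14778 genes. No 2 arrays were identical, no column was left unused, and groups come from the sample titles.

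Group means over all 9 arrays were fitted with limma 3.58.1 in R 4.3.3 (6 residual and 3.86 prior degrees of freedom), with Benjamini-Hochberg adjustment over all genes and calls at an adjusted p under 0.05. The script was tested on simulated data. The rule named the members, RHOH, list genes called in any comparison, and 3 genes closest to each called member. The values of uncalled genes are given as examples chosen after they were seen. Members and all 13 other lists were chosen with earlier results of these data known. Alternatives covered normalization, weights, arrays fitted, filters, probe sets, moderation, a replicate block and left-out arrays. Probe sequences were not used, so cross-reading between family members was not tested.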

Additional observations from a re-analysis of the deposited data

How the results depend on the processing

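Members called numbered 1 between the RhoH groups, 2 for induced RhoH against GFP and 2 for uninduced RhoH against GFP, and 1 to 2, 1 to 2 and 2 when any 1 array was left out. Between the RhoH groups 2 were called with array weights, with the replicate block and without both RhoH replicate 1 arrays, and for induced RhoH against GFP 1 with all probe sets tested. Over all genes the counts were 558, 664 and 2258, and 304 to 666, 279 to 861 and 1450 to 2670 with 1 array left out. Between the RhoH groups the count was 953 (588 higher, 61.7%) after quantile normalization again, 950 (562 higher) with array weights and 190 (182 higher) with only the 6 arrays compared. With array weights it was 1176 for induced RhoH against GFP and 4326 for uninduced RhoH against GFP. GBP3 and GBP4 changed direction in none of the 19 alternatives. GBP5 did so between the RhoH groups with array weights (-0.0392) and without induced RhoH replicate 1 (-0.13) or both RhoH replicate 1 arrays (-0.13). For induced RhoH against GFP it did so in the same settings (-0.0165, -0.11 and -0.11), and for uninduced RhoH against GFP after quantile normalization again (-0.0410) and without GFP replicate 1 (-0.0048). With 1 array left out its highest values in these comparisons were 0.12, 0.14 and 0.0460. The cause was not tested. The filter on dim genes removed GBP5. Replicate numbers were not taken as pairs, since not every correlation of same-numbered deviations was over 0.1 (-0.03 to 0.54, those of replicate 3 all under 0.1), although 12 of 18 cases matched their own number best, a hint of partial pairing from the data. With the replicate block GBP4 passed between the RhoH groups (0.78, adjusted p = 0.0259), and no other call of a member changed.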
